A study of Mus musculus with 29 samples.

Results

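The class IIa histone deacetylase genes Hdac4, Hdac5, Hdac7 and Hdac9, the corepressor gene Dach2 and the transcription factor genes Mef2a, Mef2c and Mef2d were taken by symbol from a table of read counts, which held all 8 of them among 22537 gene symbols. The table covers poly-A RNA from entire tibialis anterior (TA) muscles of male C57BL/6 mice from the colony of the National Institute on Aging, and the labels name no transgene or treatment in any group. In run 1, libraries of 7 mice at 24m were sequenced beside those of 7 mice at 6m, and in run 2, libraries of 8 mice at 28m beside a further library of each of those 7 mice at 6m, 29 libraries in all. The labels give the oldest mice as 28 months or older. Mice are numbered within their group, and a number at 6m is the same animal in both runs. Each old group was compared with the 6m libraries of its own run. The libraries of 24m mouse 4 and of 6m mouse 4 in run 1 stood apart from their groups, with long genes low. The tests of the 8 genes and the counts of the gene lists at 24m are given with and without them.

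Class IIa HDACs shuttle between nucleus and cytoplasm and have little catalytic activity of their own. In the nucleus they bind Mef2 proteins and recruit corepressor complexes that hold class I Hdac3, so that Mef2 target genes are repressed, and their phosphorylation by calcium-dependent and other kinases creates docking sites for 14-3-3 proteins, which carry them out of the nucleus. In skeletal muscle this axis is known from denervation: Hdac4 and Hdac5 repress Dach2, Dach2 represses the myogenin gene Myog, and myogenin in turn activates synaptic genes such as those of the acetylcholine receptor and the ubiquitin ligase genes of atrophy. Mef2 proteins are also activators of the genes of contraction and of oxidative metabolism.

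At 28m, Hdac7, Dach2, Mef2a and Mef2d were lower than at 6m, Hdac4 was lower in 5 of 8 mice without passing the test over all genes, and Hdac5, Hdac9 and Mef2c were not called. At 24m none of the 8 genes was called. The levels of all members but Hdac9 spread more widely over the mice of 28m than over those of 6m in run 2, with an SD of log2 CPM of 1.42 against 0.103 for Mef2a and of 0.919 against 0.085 for Mef2d. In run 1, where 6m mouse 4 stood apart, the same 6m mice had an SD of 0.731 for Mef2a and of 0.498 for Mef2d. At 28m, Mef2a, Mef2d and Hdac4 were lowest in mice whose long genes as a whole were low. Dach2 was called as lower at 28m under every alternative computed.

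Levels are given as counts per 1000000 counts of the library (CPM), with library sizes adjusted for composition by the TMM factors of edgeR, and levels of different genes are ranked per kilobase of exonic length. On that scale, Mef2c was the highest of the 8 genes in every group, at 50.8 ± 2.6 CPM per kb at 6m in run 2 (SD, n = 7) and 54.4 ± 6.78 at 28m (SD, n = 8). Mef2d followed with 24.6 ± 1.44 and 13.2 ± 7.8 CPM per kb. Hdac5 stood at 9.82 ± 0.987 and 8.76 ± 1.36, and Mef2a at 6.97 ± 0.507 and 3.24 ± 2.49 CPM per kb. The order of Hdac5 and Mef2a rests on the length used, since at 6m and 24m Mef2a was above Hdac5 per kilobase of the longest transcript. Hdac7, at 4.07 ± 0.35 and 2.71 ± 0.52 CPM per kb, was above Hdac4, at 1.61 ± 0.383 and 0.989 ± 0.608. Dach2, at 1.14 ± 0.136 and 0.67 ± 0.202, and Hdac9, at 0.551 ± 0.195 and 0.608 ± 0.186 CPM per kb, were the lowest. At 6m in run 2 the ranges of mean ± SD of Hdac4 and Dach2 overlapped. At 28m those of Hdac4, Dach2 and Hdac9 overlapped, that of Mef2d overlapped with those of Hdac5 and Mef2a, and that of Mef2a also with those of Hdac7, Hdac4, Dach2 and Hdac9.

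**Figure D1:**
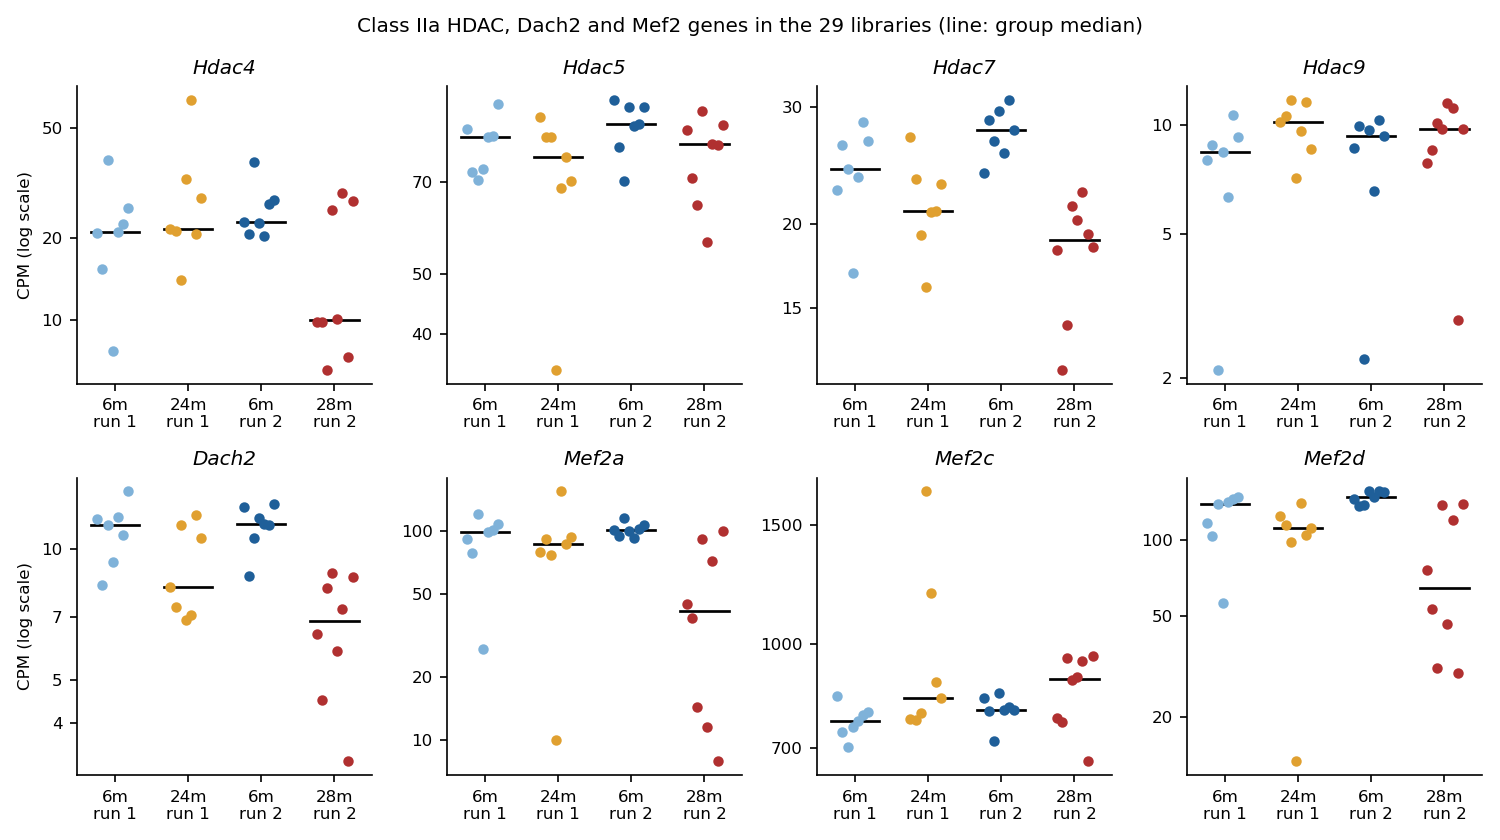
Level of each of the 8 genes in CPM on a log axis, 1 point per library, in the groups 6m and 24m of run 1 and 6m and 28m of run 2, with a line at the group median. Hdac7 shows no overlap between 6m and 28m in run 2, while Mef2a, Mef2d and Hdac4 at 28m spread from the range of the 6m mice down to 7.87, 29.7 and 6.61 CPM.

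Among the class IIa HDACs, Hdac7, which is known for its part in endothelium and in developing muscle and T cells, had between 23.9 and 30.7 CPM at 6m (median 27.7) and between 12.1 and 22.4 CPM at 28m (median 18.9). All 8 old mice lay below all 7 mice at 6m, which held for 6.18% of the genes tested. The log2 fold change was -0.61 (SE 0.12), or 1.53-fold lower, with an edgeR quasi-likelihood adjusted p of 0.00139 (Benjamini-Hochberg over 12994 genes). When the dependence on exonic length and GC content was taken out of each library, a step called removal of the length and GC trend here, the log2 fold change was -0.26 (SE 0.1) with an edgeR adjusted p of 0.0517. Markers of endothelium were also lower at 28m: 7 of the 8 in the list were called as lower, where 22.9% of all genes were. They were led by Kdr (-1.29), Flt1 (-0.93) and Cdh5 (-0.87), and the summed level of the 8 markers was between 247.5 and 414 CPM against 483 to 551 at 6m. The count was 5 with the trend removed, 4 against the 6m libraries of run 1 and between 5 and 7 without a single mouse. In RNA of whole muscle, fewer cells of a type and less RNA per cell cannot be told apart, and the part of the endothelial share in the level of Hdac7 was not tested.

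Hdac4, the class IIa HDAC best known for rising after denervation, had between 20.2 and 37.7 CPM at 6m in run 2 (median 22.8) and between 6.61 and 28.9 at 28m (median 10.01). The 28m mice numbered 4, 6 and 8 had 25.1, 28.9 and 27.2 CPM, inside the 6m range, and the other 5 had at most 10.1 CPM, below all mice at 6m. The log2 fold change of -0.72 (SE 0.319) did not pass (edgeR adjusted p = 0.073). It passed with limma-voom (-0.93, adjusted p = 0.021) and in edgeR when 28m mouse 4, 6 or 8 was left out (adjusted p between 0.0239 and 0.0369). It was -0.26 (SE 0.218, edgeR adjusted p = 0.356) with the length and GC trend removed and -0.48 (SE 0.369, edgeR adjusted p = 0.325) against the 6m libraries of run 1.

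Hdac5, a close relative of Hdac4 and the most abundant class IIa HDAC here, had between 70.4 and 95.04 CPM at 6m (median 87.0) and between 56.2 and 91.1 at 28m (median 80.6). Its groups overlapped, with 2 of 8 old mice below all 6m mice, and its log2 fold change was -0.19 (SE 0.106, edgeR adjusted p = 0.15). After the length and GC trend was removed, the sign turned and the gene was called as higher, at 0.28 (SE 0.091, edgeR adjusted p = 0.0263). Hdac9, a class IIa HDAC known to repress the response of muscle to electrical activity, had between 2.26 and 10.3 CPM at 6m (median 9.31) and between 2.89 and 11.5 at 28m (median 9.75), with a log2 fold change of 0.11 (SE 0.282, edgeR adjusted p = 0.761), and of 0.59 with the length and GC trend removed (SE 0.266, edgeR adjusted p = 0.0865). In each group of run 2 a single mouse held the low end, mouse 3 at 6m and mouse 7 at 28m, and the other mice had 6.55 CPM or more.

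Dach2, a corepressor that acts with Eya proteins and represses Myog in innervated muscle, had between 8.69 and 12.7 CPM at 6m (median 11.4) and between 3.26 and 8.8 CPM at 28m (median 6.86). Of the 8 old mice, 7 lay below all mice at 6m, and mouse 4 at 28m overlapped with mouse 2 at 6m. Dach2 fell by 0.8 on the log2 scale (SE 0.179), or 1.74-fold, with an edgeR adjusted p of 0.00277. The call held in all 15 fits that left out a mouse (-0.87 to -0.69) and under the 10 other alternatives (-0.86 to -0.53), the removal of the length and GC trend among them (-0.53, SE 0.145, edgeR adjusted p = 0.0103). The lowest Dach2 counts were 87 reads in the 28m libraries and 188 in the 6m libraries of run 2. Myog, the gene repressed by Dach2, had between 1.18 and 5.29 CPM at 6m and between 4.28 and 29.1 at 28m, and its log2 fold change was 2.09 (SE 0.459, edgeR adjusted p = 0.00248). The 28m mouse with the highest Myog, mouse 7, was the mouse with the lowest Dach2, but mice 2 and 3, which had 4.52 and 8.12 CPM of Dach2, had nearly equal Myog of 4.94 and 4.75 CPM.

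Of the Mef2 genes, Mef2a, a transcription factor of muscle and heart, had between 93.3 and 115 CPM at 6m in run 2 (median 102) and between 7.87 and 100.2 CPM at 28m (median 41.6). Of the old mice, 7 of 8 were below all mice at 6m, and mouse 8 was inside their range. Mef2a fell by 1.12 on the log2 scale (SE 0.442), or 2.18-fold, with an edgeR adjusted p of 0.0462. This call was lost in all but 3 of the 15 fits that left out a mouse (those without 28m mouse 4, 6 or 8), with adjusted p up to 0.0744, and it was lost with the length and GC trend removed (-0.81, SE 0.371, edgeR adjusted p = 0.095).

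Mef2d, which is known for a muscle-specific splice form that escapes repression by HDACs, had between 136 and 156 CPM at 6m (median 148) and between 29.7 and 139 CPM at 28m (median 64.5). Of the old mice, 6 of 8 were below all mice at 6m, and mice 4 and 8 overlapped with them. Mef2d fell by 0.92 on the log2 scale (SE 0.309), or 1.89-fold, with an edgeR adjusted p of 0.0234, and it kept the call in all 15 fits without a mouse and with the length and GC trend removed (-0.75, SE 0.25, edgeR adjusted p = 0.0276). Against the 6m libraries of run 1 in place of those of run 2, neither Mef2a (-0.93, edgeR adjusted p = 0.155) nor Mef2d (-0.63, edgeR adjusted p = 0.167) was called.

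Mef2c, which is needed for the integrity of the sarcomere and is also known in endothelium, was not called. It had between 716 and 844 CPM at 6m (median 798) and between 669 and 960 at 28m (median 887). Of the old mice, 5 were above all mice at 6m and 1 was below them, so the groups overlapped, and the log2 fold change was 0.07 (SE 0.088, edgeR adjusted p = 0.512). With the length and GC trend removed, Mef2c was called as higher, at 0.53 (SE 0.085, edgeR adjusted p = 0.000477).

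In all, 4 of the 8 genes were called at 28m, and each was lower. Over all genes tested, 22.9% were called as lower and 24.3% as higher. The median log2 fold change was -0.67 over the 8 genes and 0.01 over all genes. With the length and GC trend removed, 2 of the 8 were called as lower, Dach2 and Mef2d, and 2 as higher, Hdac5 and Mef2c, against 15.5% and 21.5% of all genes.

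**Figure D2:**
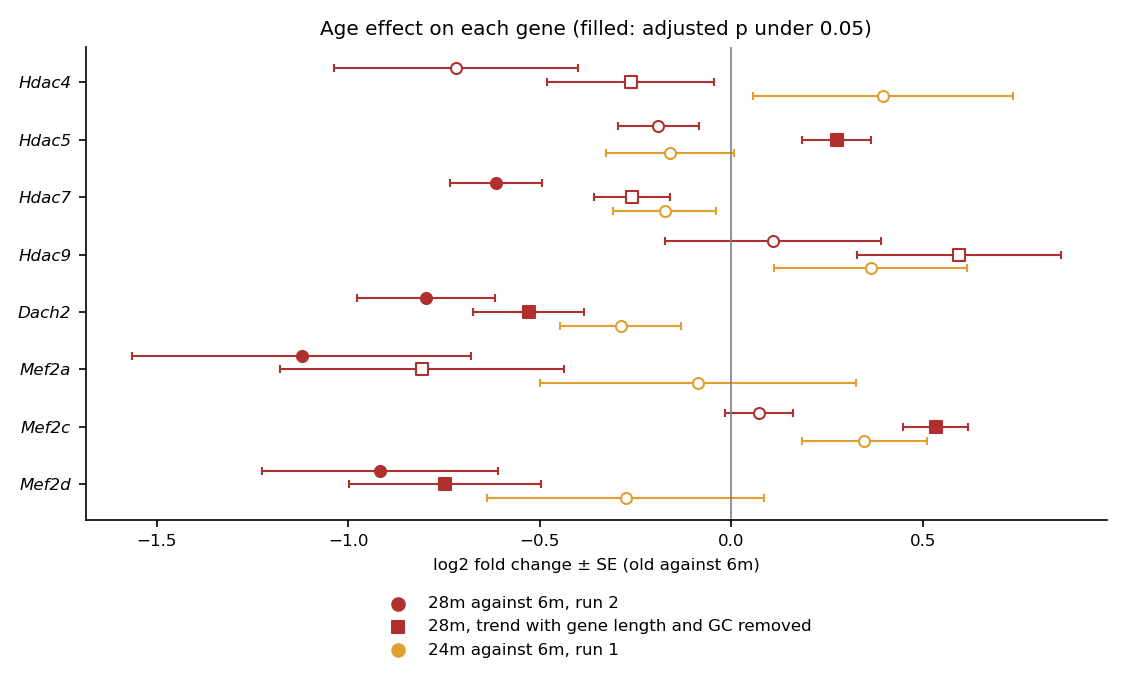
Log2 fold change against 6m with its SE for each gene at 28m (circles), at 28m with the length and GC trend removed (squares) and at 24m (circles of the lighter colour), with filled symbols for an adjusted p under 0.05. Dach2 and Mef2d are filled and lower in both 28m fits, Hdac5 and Mef2c are filled on the higher side only after the trend was removed, and no symbol at 24m is filled.

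The annotated start regions of 4 of these genes are shown because Mef2a and Mef2d were low in the same libraries while their relative Mef2c was not, and Dach2 was called in every fit. They are from RefSeq on GRCm38.p6, each from 250 bases before the start site to 10 bases after it, written 5′ to 3′ on the strand of the gene. Capitals mark E-boxes (CANNTG), the site bound by myogenin and its relatives, and the core of a MEF2 site (TANNNNTA with A or T at each N, the flanking bases in capitals where they also match the full site). The windows are chr7:67372849-67373108, minus strand, for Mef2a, chr3:88142122-88142381, plus strand, for Mef2d, chr13:83503784-83504043, plus strand, for start site 1 of Mef2c, and chrX:113297260-113297519, plus strand, for start site 1 of Dach2.
Mef2a: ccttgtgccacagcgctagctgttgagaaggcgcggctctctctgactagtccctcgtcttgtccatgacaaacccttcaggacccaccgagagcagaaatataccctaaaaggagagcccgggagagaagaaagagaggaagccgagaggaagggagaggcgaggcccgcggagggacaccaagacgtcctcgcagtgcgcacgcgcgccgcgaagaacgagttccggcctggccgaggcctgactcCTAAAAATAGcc
Mef2d: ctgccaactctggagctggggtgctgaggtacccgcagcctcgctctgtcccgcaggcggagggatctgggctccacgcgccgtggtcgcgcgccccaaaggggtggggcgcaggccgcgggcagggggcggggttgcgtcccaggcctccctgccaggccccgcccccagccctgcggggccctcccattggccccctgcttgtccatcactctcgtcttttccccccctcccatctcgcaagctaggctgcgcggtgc
Mef2c: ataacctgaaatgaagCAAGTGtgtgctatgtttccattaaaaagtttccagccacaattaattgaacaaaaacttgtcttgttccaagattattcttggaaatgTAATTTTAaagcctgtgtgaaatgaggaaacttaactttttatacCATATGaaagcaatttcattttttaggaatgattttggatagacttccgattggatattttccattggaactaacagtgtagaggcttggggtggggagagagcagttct
Dach2: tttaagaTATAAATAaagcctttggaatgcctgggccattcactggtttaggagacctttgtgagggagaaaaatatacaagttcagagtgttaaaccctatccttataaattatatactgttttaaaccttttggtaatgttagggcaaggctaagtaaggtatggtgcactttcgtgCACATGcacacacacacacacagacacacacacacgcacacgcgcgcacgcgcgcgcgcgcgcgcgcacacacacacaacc
Mef2a held a full MEF2 site, whose core begins at -1, -1 being the base just before the start site, and no E-box. Mef2d held neither, and its 300 listed bases were 72% G or C, against a median of 52.7% over all promoters. Mef2c held E-boxes at -234 and -100 and a MEF2 core at -145, and Dach2 an E-box at -71 and a MEF2 core at -243, which also contains the TATA letters TATAAA. Among 32851 promoters of the same 300 bases, searched on both strands, 72.3% held an E-box, 9.3% a MEF2 core and 3.2% a full MEF2 site. Of the other members, Hdac5 held a full site with its core at -19 and E-boxes at -89 and 4. Hdac9 held E-boxes at both listed start sites and a MEF2 core at -165 of start site 2, and Hdac7 held E-boxes at 2 of 4 start sites and no MEF2 core. Start site 2 of Dach2 and of Mef2c held neither, and start site 3 of Mef2c held an E-box at -245. Hdac4 held no E-box or MEF2 core, but 5 GC boxes (GGGCGG), a motif found in 35.7% of all promoters. A match is given as a description of these letters and not as a bound site.

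Several of these levels moved with a property of the libraries. In each library, log2 expression relative to the median 6m library of run 2 was regressed on the log2 exonic length of all genes expressed. The slope per doubling of length was between -0.017 and 0.022 in the 6m libraries of run 2 and between -0.491 and -0.054 at 28m, without overlap. All 8 genes are long, with 5985 (Mef2d) to 15813 (Hdac4) exonic bases, and fall into classes 7 to 10 when the genes tested are split by length into 10 classes of about equal size. In class 10, the longest genes, which holds Hdac4, Hdac9, Mef2a and Mef2c, 55.9% of genes were called as lower at 28m and 3.96% as higher, and the median log2 fold change was -0.43. In class 7, that of Mef2d, 28.4% were called as lower, with a median of -0.13.

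Mef2a and Mef2d followed this slope most closely, with Pearson's r of 0.97 for each between log2 CPM and slope over the 29 libraries, which is a description only, since all points share the library from which both values come. Over the same libraries r was 0.76 for Hdac7, 0.71 for Dach2, 0.67 for Hdac4, 0.64 for Hdac5, 0.05 for Hdac9 and -0.32 for Mef2c. Of the 28m mice, mice 4, 6 and 8 had the slopes nearest 0, at -0.078, -0.154 and -0.054, and the highest Mef2a, at 91.5, 72.3 and 100.2 CPM. Mice 3, 5 and 7 had slopes of -0.464, -0.393 and -0.491 and Mef2a of 14.4, 11.5 and 7.87 CPM. Within single groups, r was 0.94 for Hdac4 at 28m (n = 8) and 0.04 at 24m (n = 7), 0.67 and 0.87 for Hdac5, 0.38 and 0.73 for Hdac7, 0.48 and 0.67 for Hdac9, 0.65 and 0.28 for Dach2, and 0.48 and -0.71 for Mef2c. The values at 24m include mouse 4, whose library stood apart. Exonic length was 15715 bases for Mef2c, 14681 for Mef2a and 14665 for Hdac9. The part of the length trend in the changes of single members was not tested beyond the fit that removes it.

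**Figure D3:**
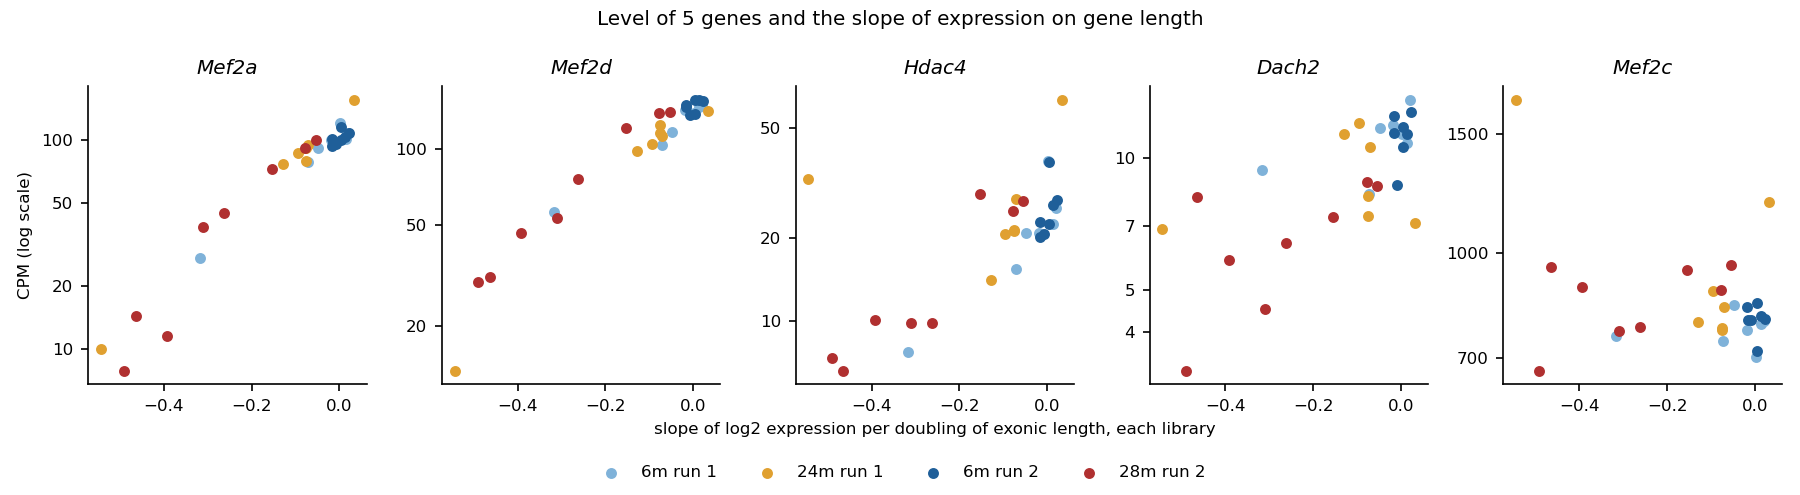
Level of Mef2a, Mef2d, Hdac4, Dach2 and Mef2c in CPM on a log axis against the slope of log2 expression per doubling of exonic length, 1 point per library coloured by group. Mef2a and Mef2d are lower in libraries with steeper negative slopes, at 10 and 13.3 CPM in the 24m library at -0.544 and at 7.87 and 29.7 CPM in the 28m library at -0.491, and Mef2c is highest, 1686 CPM, in that 24m library.

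At 24m, 0 of the 8 genes was called, by edgeR, limma-voom or DESeq2, and none of them had an unadjusted p under 0.05 in edgeR or limma-voom, and 1 did in DESeq2. Of all 13103 genes tested, 0.084% were called and 11.8% had an unadjusted p under 0.05. Hdac4 had between 14.1 and 63.5 CPM at 24m (median 21.4), against 7.72 to 38.1 at 6m in run 1 (median 20.9), with a log2 fold change of 0.4 (SE 0.339, edgeR adjusted p = 0.617). Only mouse 5 lay above all mice at 6m, and without it the log2 fold change was 0.08. Over all fits without a single mouse it was between 0.08 and 0.6. Dach2 had between 6.89 and 11.98 CPM (median 8.19) against 8.29 to 13.6 (median 11.3), and 4 of the 7 old mice were below all mice at 6m. Its log2 fold change was -0.29 (SE 0.158, edgeR adjusted p = 0.464). Mef2c had between 770 and 1686 CPM (median 831) against 702 to 838 (median 769), with mice 4, 5 and 6 above all mice at 6m, and a log2 fold change of 0.35 (SE 0.164, edgeR adjusted p = 0.423). Hdac7 (-0.17, SE 0.135), Hdac5 (-0.16, SE 0.167), Hdac9 (0.36, SE 0.252), Mef2a (-0.09, SE 0.413) and Mef2d (-0.28, SE 0.361) had edgeR adjusted p between 0.547 and 0.937.

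Single mice stood at the ends of the ranges at 24m. Mouse 4 had the lowest Mef2a, Mef2d and Hdac5 of its group, at 10, 13.3 and 35.1 CPM, and the highest Mef2c, at 1686 CPM. The other 6 mice had at least 77.1, 97.7 and 68.5 CPM of the first 3 genes. Its library also had the steepest slope on length of all, -0.544, and the most Myog, 38.4 CPM. Mouse 5, whose slope was 0.033, had the highest Hdac4 and Mef2a of the group, at 63.5 and 156 CPM. Without mouse 4 of 24m and the 6m library of run 1 that also stood apart, 0 of 8 genes was called, against 0.921% of all genes, and the log2 fold change of Mef2c was 0.17 (SE 0.108). Those of the other members were then 0.23 for Hdac4, -0.06 for Hdac5, -0.18 for Hdac7, 0.45 for Hdac9, -0.27 for Dach2, -0.04 for Mef2a and -0.2 for Mef2d, with edgeR adjusted p between 0.295 and 0.923.

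The age effect at 28m minus that at 24m was tested in a fit of all 29 libraries and passed for none of the 8 genes, nor for any of 13455 genes (0.0%). The difference was -1.11 for Hdac4 (SE 0.485, unadjusted p = 0.0292) and -0.42 for Hdac7 (SE 0.174, unadjusted p = 0.0207), each with an edgeR adjusted p of 0.399. An unadjusted p under 0.05 was reached by these 2 of 8 genes and by 12% of all genes. DESeq2 and limma-voom called none of the 8, while DESeq2 called 2 of 19560 genes. Without 24m mouse 4, edgeR called 453 of 13492 genes as lower and 1204 as higher, but none of the 8. Without 24m mouse 4 and the run 1 library of 6m mouse 4, edgeR called 0 of 13499 genes. With the mouse as a block in limma-voom, which takes account of the 2 libraries of each 6m mouse, none was called, and 4 of the 8 genes, against 21.3% of all, had an unadjusted p under 0.05. For Dach2, Mef2a and Mef2d the differences were -0.49 (SE 0.242), -1.03 (SE 0.634) and -0.63 (SE 0.489), with edgeR adjusted p between 0.417 and 0.562. The calls at 28m and their absence at 24m were therefore not shown to differ between the ages.

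Both libraries of the 7 mice at 6m show how far a level moved between preparations of RNA from the same animal. None of the 8 genes was called between the runs, with edgeR adjusted p of 0.875 or more, where 0.0% of 12884 genes was called and none of the 8, against 2.77% of all, reached an unadjusted p under 0.05. With mouse terms in the edgeR fit, Hdac7 alone of the 8 did (0.21, SE 0.088, edgeR adjusted p = 0.498), against 8.17% of all genes, and it was higher in run 2 in 7 of 7 mice, by 0.06 to 0.8. In mouse 4, however, the level in run 2 was above that in run 1 by 1.88 for Mef2a, 1.54 for Hdac4, 1.47 for Mef2d and 0.8 for Hdac7 on the log2 scale. In the other 6 mice the largest absolute differences of these genes were 0.28, 0.42, 0.39 and 0.14. The run 1 library of mouse 4 had a slope on length of -0.317 and its run 2 library one of 0.004. Mef2c and Hdac9 differed in mouse 4 by 0.17 and 0.2 only. In this mouse Mef2a stood at 27.2 CPM in run 1 and at 100.2 CPM in run 2, so the first of these levels lay within the range of the mice at 28m.

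**Figure D4:**
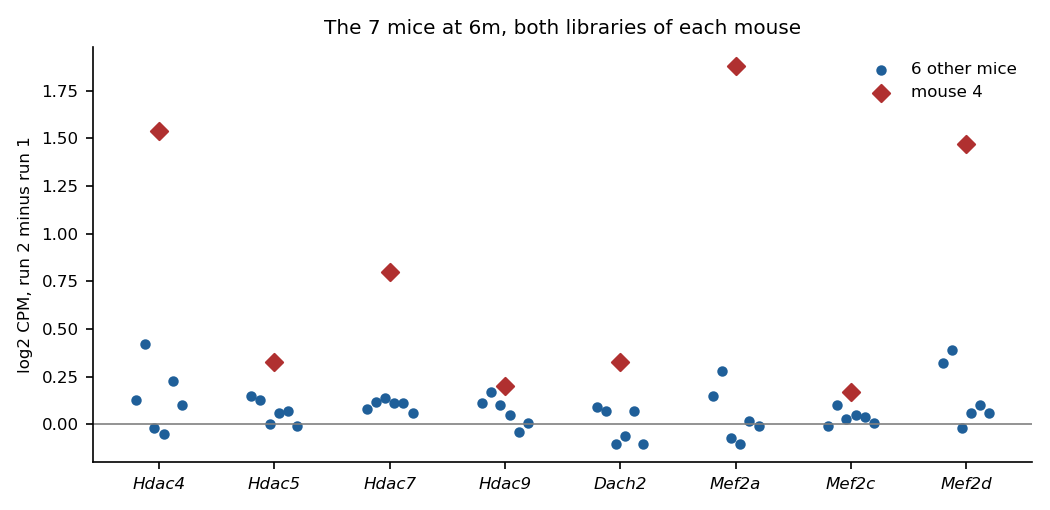
Difference in log2 CPM between the library of run 2 and that of run 1 of the same mouse at 6m, for the 8 genes, with mouse 4 as a diamond and the other 6 mice as circles. Mouse 4 lies at 1.88 for Mef2a, 1.54 for Hdac4 and 1.47 for Mef2d, and the other mice stay within 0.42 of 0 for every gene.

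The shares of the genes within each family are given as a description, as shares of counts with no scaling by length. Mef2c held between 74.0% and 77.5% of the counts of the 3 Mef2 genes at 6m in run 2 and between 79.4% and 95.5% at 28m, so that all old mice were above all mice at 6m in that run. Mef2a held between 8.99% and 11.9% at 6m and between 1.11% and 8.35% at 28m, and Mef2d between 13.2% and 14.6% and between 3.11% and 12.4%, without overlap for either. The run 1 libraries of the same 6m mice did overlap with 28m: Mef2c held up to 90.01% there, in mouse 4, whose Mef2a and Mef2d held 3.25% and 6.74%, and Mef2c held 80.1% and 80.3% in mice 1 and 2. In 24m mouse 4, Mef2c held 98.6%. Mef2a counts were between 0.631 and 0.842 times those of Mef2d at 6m and between 0.248 and 0.723 times at 28m, lowest in mice 5 and 7. Within the class IIa HDACs, Hdac5 held the largest share in every library, from 38.5% in 24m mouse 4 to 73.1% in 28m mouse 7. Hdac4 held between 14.6% and 27.5% at 6m in run 2 and between 6.68% and 20.2% at 28m. It reached 36.0% and 39.1% in mice 4 and 5 at 24m.

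**Figure D5:**
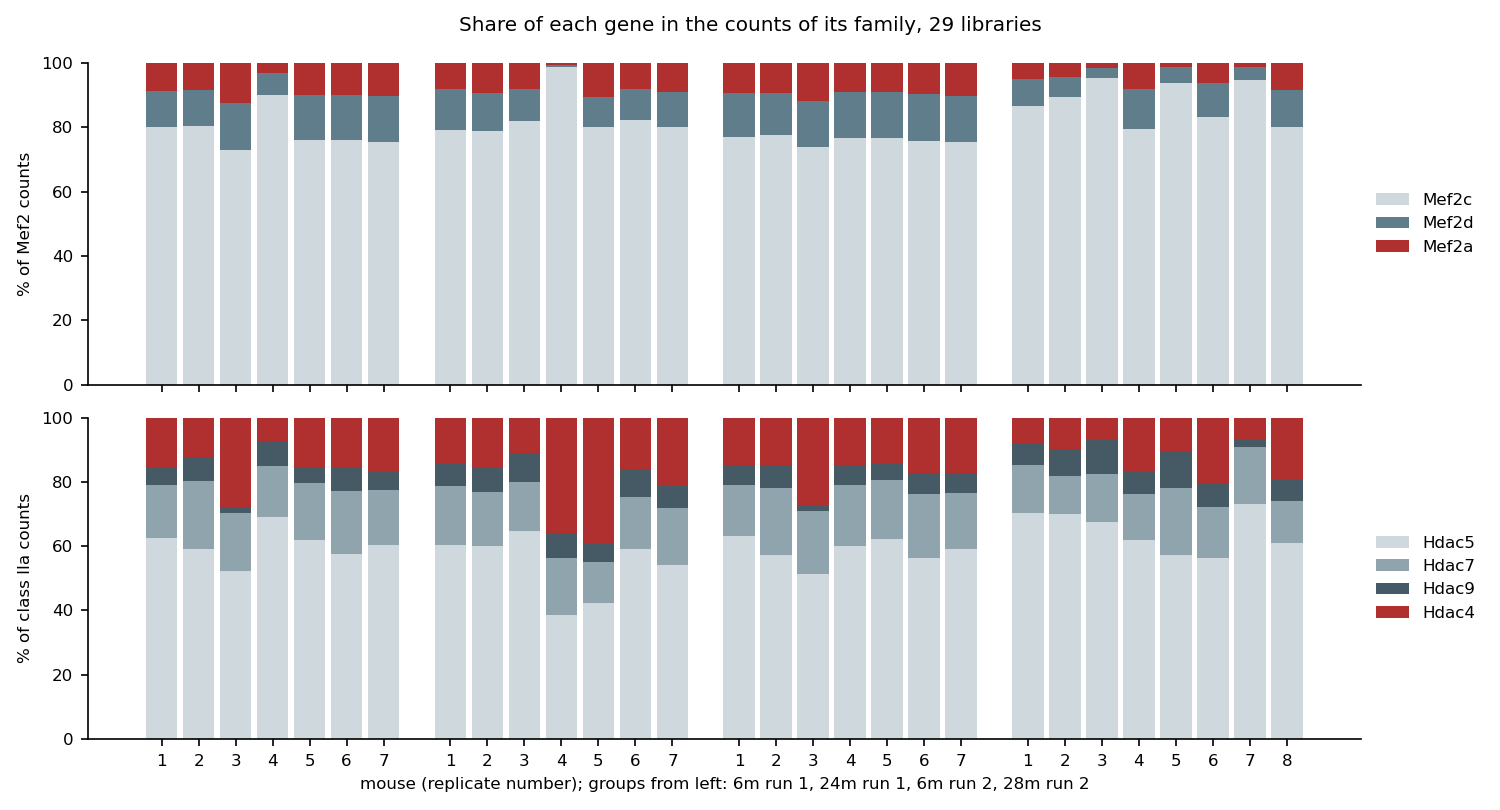
Share of each gene in the summed counts of the 3 Mef2 genes (upper bars) and of the 4 class IIa HDAC genes (lower bars), 1 bar per library from 0 to 100%, in the order 6m run 1, 24m run 1, 6m run 2 and 28m run 2. Mef2c takes 74.0% to 77.5% at 6m in run 2 and 79.4% to 95.5% at 28m, and Hdac4 takes its largest shares in 24m mice 4 and 5.

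Genes around the axis were taken from lists chosen with earlier results of these data known, so their counts are a description. Of all genes, 22.9% were called as lower and 24.3% as higher at 28m. No gene of any of these lists was called at 24m by edgeR, while DESeq2 called 6 of the 16 genes of the myogenin arm as higher there, 1 kinase gene as higher and 1 gene of the Dach2 partner families as lower, against 1.11% of all genes higher and 0.293% lower by DESeq2. Without the 2 libraries that stood apart, edgeR called Nfatc3 (-0.3) of the lists and Mbp (0.47), a Schwann cell marker, at 24m, both named after their values were seen. Of 16 tested kinases that phosphorylate class IIa HDACs, 7 were lower at 28m and 0 higher (median log2 fold change -0.11), led by Sik2 (-1.53), a salt-inducible kinase, and by the calmodulin-dependent kinases Camk2a (-0.91) and Camk1d (-0.7). With the length and GC trend removed, 3 of the kinases were lower and 4 higher, and Camk1d was not called. Of the 7 genes of 14-3-3 proteins, which keep phosphorylated HDACs in the cytoplasm, 0 were lower and 5 higher (median 0.24), led by Sfn (0.58), Ywhaz (0.53) and Ywhaq (0.48). Of all 5 higher genes, only Ywhaz stayed called with the trend removed. This count of 5 was 3 without 6m mouse 1, 4 or 5 or 28m mouse 5, 2 without 6m mouse 6, and 3 without the filter on low counts. Of the other fits without a mouse, it stayed at 5 only without 6m mouse 3 or 28m mouse 8, and was 4 in the rest.

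Among the corepressors through which class IIa HDACs act, 3 of 7 were lower (median -0.11), among them Tbl1x (-0.91) and Ncor1 (-0.49), and none was higher. Ncor1 lost its call and turned with the trend removed (0.02). Of 7 other zinc-dependent HDACs, Hdac1 was higher (0.32) and 6 were not called, among them Hdac3, the catalytic partner of class IIa HDACs (0.21, SE 0.095, edgeR adjusted p = 0.0805).

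Calcineurin dephosphorylates and activates Mef2 and NFAT. Of 11 genes of calcineurin, its regulators and NFAT, 4 were lower, led by Nfatc3 (-0.87), Rcan2 (-0.6) and Nfatc1 (-0.53), and Ppp3ca was higher (median -0.37). The list also holds inhibitors of calcineurin such as Rcan2, so its count and median give no direction of pathway activity. Of the 4 lower genes, only Nfatc3 and Rcan2 stayed called with the trend removed. The count of lower genes was 7 without 28m mouse 6 and 3 without 6m mouse 2. Of 7 tested partners of Mef2, 4 were lower and 0 higher (median -0.4), led by Ep300 (-1.18), Vgll4 (-0.95) and Crebbp (-0.71). Ep300 and Crebbp encode coactivators, and Crebbp lost its call with the trend removed. Mef2b, the fourth Mef2 gene, had at most 14 counts in any library and was not tested. Of 9 tested genes that are relatives or partners of Dach2, 3 were lower, among them Eya1 (-0.89) and Six4 (-0.84), and none was higher (median -0.29). Dach1, the other Dach gene, was not called (-0.23, SE 0.145, edgeR adjusted p = 0.198). With the trend removed, 2 of the 9 were called as lower.

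Downstream, 8 of 16 genes of the myogenin arm were higher at 28m and 0 lower (median 0.82), among them Chrng (3.52), the fetal subunit of the acetylcholine receptor, Gadd45a (2.11), which is induced by denervation, and Myog itself (2.09). Of the ubiquitin ligase genes of the list, Fbxo32 (-0.31, SE 0.157, edgeR adjusted p = 0.113) and Trim63 (0.26, SE 0.139, edgeR adjusted p = 0.13) were not called, nor was Musk (-0.62, SE 0.416, edgeR adjusted p = 0.222), the kinase gene of the synapse. These 3 were named after their values were seen. The 6m libraries of run 2 held 0 to 24 counts of Chrng (median 0.113 CPM), those of 28m 14 to 331 (median 1.85 CPM). Chrng therefore passed the count filter through the 28m libraries, and its fold change rests on few counts at 6m. Myog was at 2.41 (SE 0.593) at 24m, with 4 of 7 mice above all mice at 6m, but an edgeR adjusted p of 0.161. It was at 1.96 (SE 0.597, edgeR adjusted p = 0.114) without the 2 libraries that stood apart. Of 17 known targets of Mef2, 3 were lower and 3 higher at 28m (median 0.08): the largest changes were those of myoglobin, Mb (0.94), of Xirp2 (-0.91), an actin-binding protein, and of Smpx (0.81), a small muscle protein. Mb was not called with the trend removed. The count of higher targets was 5 without 28m mouse 4 and 6 without 28m mouse 8. Of 5 glycolytic genes known to be lowered by Hdac4 after denervation, 1 was higher, Tpi1 (0.34), and none was lower (median 0.24). The count of higher genes of this list was 3 with DESeq2, with DESeq2 size factors, with upper-quartile scaling, with at least 10 counts in every library and with counts thinned to the smallest library, and 0 with the trend removed, against the 6m libraries of run 1 and in 1 fit of all libraries. Without a single mouse it was between 0 (6m mouse 3) and 4 (28m mouse 4 or 8).

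Libraries held between 17633475 and 33499162 counts (median 24250878). Defining markers of muscle fibres were abundant in all 29 libraries, with a sum of 105600 to 176600 CPM over 8 genes. At 28m, 1 fibre marker was lower and 2 higher, and 7 of 8 endothelial, 4 of 6 smooth muscle and pericyte, 4 of 6 fibroblast, 0 of 6 immune, 0 of 6 Schwann cell and 2 of 5 satellite cell markers were lower, while 1 smooth muscle and pericyte and 1 Schwann cell marker were higher. The largest changes were those of Pvalb (0.62), Myh4 (-0.48) and Tnnt3 (0.47) in fibres, Rgs5 (-1.23), Notch3 (-1.03) and Myh11 (-0.72) in smooth muscle and pericytes, and Col1a1 (-1.88), Col3a1 (-1.58) and Pdgfra (-0.92) in fibroblasts. With the length and GC trend removed, the 3 fibre and the 3 fibroblast genes named were not called, and Col3a1 was called in only 8 of the 15 fits without a mouse. The count of 4 fibroblast markers was 1 without 6m mouse 2, and 2 without 6m mouse 6 or 28m mouse 1, 2, 3, 4 or 8. Pax7 (-1.6) and Chodl (-0.61) of satellite cells were also called. With all libraries of run 1, edgeR called no marker at 24m. Against the 6m libraries of run 1, of all genes named from the lists, Sik2, Camk1d, Ywhaq, Tbl1x, Ncor1, Hdac1, Nfatc1, Vgll4, Mb, Tpi1, Pvalb, Myh4, Tnnt3, Flt1, Rgs5, Myh11, Col3a1 and Pax7 were not called at 28m. Summed fibroblast markers were between 322 and 1171 CPM at 28m (median 475) and between 546 and 2795 at 6m in run 2 (median 732), where the highest value was that of mouse 2 and the next was 1192. Whether the cell make-up of the muscles moved the levels of the 8 genes was not tested.

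For each member, the genes most like it were taken as the 3 with the highest Pearson's r of log2 CPM over the 15 libraries of run 2, as a description. Mef2a was closest to Crkl (0.995), C130083M11Rik (0.992) and Ksr1 (0.992), and Mef2d to Numa1 (0.997), Mink1 (0.994) and Usp9x (0.994). In the 14 libraries of run 1, which include the 2 that stood apart, r was between 0.941 and 0.99. Hdac4 was closest to Stx17 (0.976), Brf1 (0.973) and Slc9a7 (0.973), and in run 1 these values were 0.291, 0.631 and 0.913. Dach2 was closest to Fam35a (0.971), Fbxl17 (0.962) and Qk (0.953), and Hdac7 to Arhgef5 (0.952), Chd3 (0.949) and Fat1 (0.949). In run 1 these were 0.859, 0.785 and 0.537 for Dach2 and 0.743, 0.44 and 0.716 for Hdac7. Hdac5 was closest to Cherp (0.927), Pik3cd (0.912) and Phf12 (0.901), with 0.39, 0.827 and 0.752 in run 1. Hdac9 was closest to Gprasp2 (0.906), Dll4 (0.868) and 2310015D24Rik (0.86), with 0.643, 0.555 and 0.546 in run 1, and Mef2c to Usp4 (0.875), Yes1 (0.851) and Sez6 (0.81), with 0.953, 0.424 and -0.586 in run 1.

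By the GENCODE annotation of GRCm38, the genes lie at chr1:91928779-92195699 (Hdac4), chr11:102194432-102230166 (Hdac5), chr15:97792664-97844502 (Hdac7) and chr12:34047580-34917095 (Hdac9), all on the minus strand, and at chrX:113297510-113836386 (Dach2, plus), chr7:67231163-67372858 (Mef2a, minus), chr13:83504034-83667080 (Mef2c, plus) and chr3:88142372-88172086 (Mef2d, plus). The strand setting of the counting is not stated, so reads of overlapping genes may be shared. Mef2d shares 531 exonic bases with the antisense gene 1700113A16Rik (301 to 1555 counts), Mef2a 302 with Lysmd4 (163 to 352 counts) and Hdac7 29 with Slc48a1 (967 to 1788 counts), and Hdac4 shares 3536 with the antisense gene Gm26720, which was not analysed here.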

How the data were processed

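Poly-A RNA of TA muscles was sequenced as 75-base single-end reads. Per the labels and methods, the authors aligned reads to mm10 with STAR 2.5.4b, counted reads per gene without normalization, and tested with DESeq2 1.22.2. The deposited file holds these counts for 22537 gene symbols and all 29 samples, and no column was left without a sample. The strand setting of the counting is not given in the sources used here. The labels of single samples were used where the design text swaps the numbers of mice at 24m and 28m.

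The counts were tested with edgeR 4.0.16 in R 4.3.3 (filterByExpr, TMM, quasi-likelihood F test, Benjamini-Hochberg over all genes tested, called at an adjusted p under 0.05) within each run, and the 2 age effects were compared over all libraries. Standard errors were derived from the test. CPM in the text are scaled over all 29 libraries, and log2 CPM used a prior count of 2. Exonic lengths and GC content came from GENCODE vM21 (20202 genes matched by symbol, 1897 by synonym, 438 unmatched), promoters from RefSeq. The trend with length and GC was fitted in each library with mgcv 1.9.3 and used as an offset. limma 3.58.1 and DESeq2 1.42.0 gave alternatives. The edgeR fits were tested on simulated data. The lowest count of a member in any library was 40, and the part of counting error in the spread between mice was not tested.

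The 2 libraries of a 6m mouse come from the same animal, and their deviations from the group means correlated by 0.218 to 0.814 across genes over the 7 mice. The mouse entered as terms of the edgeR fit between the runs and, for the difference of the age effects, as a block with a correlation estimated by limma-voom. The members and lists were chosen with earlier results of these data known. Genes named beside the 8 members are, in each list, the 3 with the largest absolute log2 fold change among those called at 28m, any called at 24m, Myog, Hdac3, Dach1 and Mef2b, and the 3 most similar genes of each member. Ppp3ca, Fbxo32, Trim63, Musk and Mbp were chosen after their values were seen. A few genes that this rule names are not reported here.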

Additional observations from a re-analysis of the deposited data

Results flagged for a closer look

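Among 36 groups of 7 or 8 libraries examined for the 8 genes and the slope on gene length, 11 held a library far from the rest of its group by Dixon's test on the log2 scale, a test that chance alone meets in about 1 in 20 groups. In 24m mouse 4, Mef2a had 10 CPM (next lowest 77.1), Mef2d 13.3 (97.7) and Hdac5 35.1 (68.5), and the slope on length was -0.544 (next -0.129). In the run 1 library of 6m mouse 4, Mef2a had 27.2 CPM (next lowest 78.4) and Mef2d 56.4 (103.5), with a slope of -0.317 (next -0.072). The other library of that mouse, in run 2, did not stand apart.

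Hdac9 was lowest in 6m mouse 3 in both preparations, with 2.1 CPM in run 1 (next lowest 6.32) and 2.26 CPM in run 2 (6.55), so that the low level came back in a second library of the animal. The same mouse had the highest Hdac4 of the 6m mice in both runs, with 38.1 and 37.7 CPM, and in run 2 the lowest Mef2c, with 716 CPM (next 795). At 28m, Hdac9 was lowest in mouse 7, with 2.89 CPM (next 7.83). The slope of 6m mouse 3 was 0.002 in run 1 and 0.004 in run 2, and that of 28m mouse 7 was -0.491. What sets these levels was not tested.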

How the results depend on the processing

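Of the 8 genes, 4 were called at 28m, between 3 and 5 without a single mouse, and between 2 and 5 under the 10 other alternatives. The lowest of these counts, 2 (Hdac7 and Dach2), came with the 6m libraries of run 1 in place of run 2, and the cause was not tested. Without the filter on low counts, 3 were called, Mef2a being lost (adjusted p = 0.052). At 24m the count was 0 in every fit. With the length and GC trend removed, the sign turned for Hdac5 at 28m (0.28), for the difference between the age effects of Hdac5 (0.38), Hdac9 (0.19) and Mef2c (0.085), and between the runs for Hdac5 (-0.04), Hdac9 (-0.045) and Mef2c (-0.052). The difference of Hdac5 also turned with limma-voom, without (0.024) and with the mouse as a block (0.024). Values that turned in some fit without a single mouse were those of Hdac9 at 28m (-0.051 to 0.249), Mef2a at 24m (-0.29 to 0.11), the difference of Hdac5 (-0.13 to 0.043), and Dach2 between the runs (-0.003 to 0.069).

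The mouse as a block, which pairs the 2 libraries of each 6m mouse, left the difference of Hdac5 as in limma-voom without it (0.024), and the counts of called members stayed at 0 for the difference and between the runs. The old mice share no animal with the 6m mice, so no block applies within an age comparison. The count of all genes called at 24m was 11 with edgeR and 121 without the libraries of 24m mouse 4 and 6m mouse 4, an alternative chosen after seeing the data. The 3 lower and 8 higher genes of edgeR were 45 and 170 with DESeq2, 19 and 133 in 1 fit of all libraries, 16 and 30 with the 6m libraries of run 2, 1 and 3 with at least 10 counts in every library, and 1 to 10 and 3 to 20 without a single mouse. Against the 6m libraries of run 1, 1422 genes were lower and 1559 higher at 28m, in place of 2981 and 3159.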
